A study of Mus musculus with 4 samples.

Results

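The array of cells labelled APNL+AuEMF was set against the array of fibroblasts, gene by gene, over every gene whose probe was detected on at least 1 of both arrays. That took in 8675 of the 16593 genes that the BeadChip measured with a named probe. The series holds 4 Illumina arrays of biotin-labelled RNA from mouse cells, 1 for each of APNL+AuEMF, APNL, Primary neuron and Fibroblast, and its title concerns the use of an electromagnetic field in turning cells directly into dopamine neurons. The labels spell out neither APNL nor AuEMF. Published work on such conversions leads to reading APNL as a set of introduced transcription factors that includes Pitx3, Nr4a2 and Lmx1a, and AuEMF as gold nanoparticles under an electromagnetic field, and that reading is used here. The APNL+AuEMF cells therefore differ from the fibroblasts by the factors, the gold particles and the field, while the APNL cells carry the factors alone. The labels leave out strain, age, tissue of origin, passage, days in culture and the source of the primary neurons. The question put to this pair of arrays is how far cells given both APNL and AuEMF had moved from the fibroblast pattern.

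Each group has 1 array, so nothing below has a replicate check, and no test, standard error or interval could be computed. Factors, gold particles, field, culture and array cannot be told apart in this pair. Levels are background-corrected, quantile-normalized log2 intensities. Detection of a probe means a detection p below 0.01 against the array's negative control beads. A gene was called higher or lower at a difference of 2-fold or more. Where only 1 of both arrays detected a gene, the difference was taken against the other array's lowest detected level, or the gene's own level there if that was higher, and is a lower bound on the size, written "at least". A gene detected on 1 array only could therefore be called in 1 direction only. Such genes numbered 828 for APNL+AuEMF and 99 for Fibroblast. The lowest detected level was 6.58 on APNL+AuEMF and 7.13 on Fibroblast. The APNL+AuEMF array was the brighter, with a median raw intensity of 191.89 against 169.1 on Fibroblast and with 11776 against 10643 detected probes. The part of this gap in the counts below was not tested.

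Direct conversion turns a differentiated cell into another type without a stem cell stage. Neural transcription factors open neuronal genes in fibroblasts, and midbrain factors such as Nr4a2, Pitx3 and Lmx1a specify the dopamine phenotype. A fibroblast culture is a mesenchymal population that makes collagen, and it can hold muscle precursors, macrophages and vessel cells from the tissue it was taken from. Foreign nucleic acid or particles are sensed by innate receptors, which act through interferon regulatory factors on interferon-stimulated genes and through NF-kB on chemokines and acute-phase genes.

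The genes higher in APNL+AuEMF cells included 67 of 192 compared genes on the innate immune lists, 50 of 151 on the neuronal lists, 14 of 112 on the stress lists and 13 of 20 macrophage genes. These groups share genes, such as Ctss, so the counts overlap and cannot be added. The genes that were lower included striated muscle and mesenchymal transcription factor genes. In all, 453 genes were higher (5.22% of the compared genes) and 146 were lower (1.68%). The median difference over the 8675 genes was -0.07 on the log2 scale, and 80.8% lay within 1.5-fold. Of the higher genes 283 were detected on both arrays and 170 rest on bounds, and of the lower genes 126 and 20. On none of the lists were 294 of the higher and 93 of the lower genes. The sizes were unequal. Among higher genes 156 passed 4-fold, 52 passed 8-fold and 17 passed 16-fold, whereas no gene passed 4-fold in the lower direction, where the largest difference was -1.69. The genes nearest to the threshold differed by 1.0002 just inside it and 0.9994 just outside it.

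**Figure D1:**
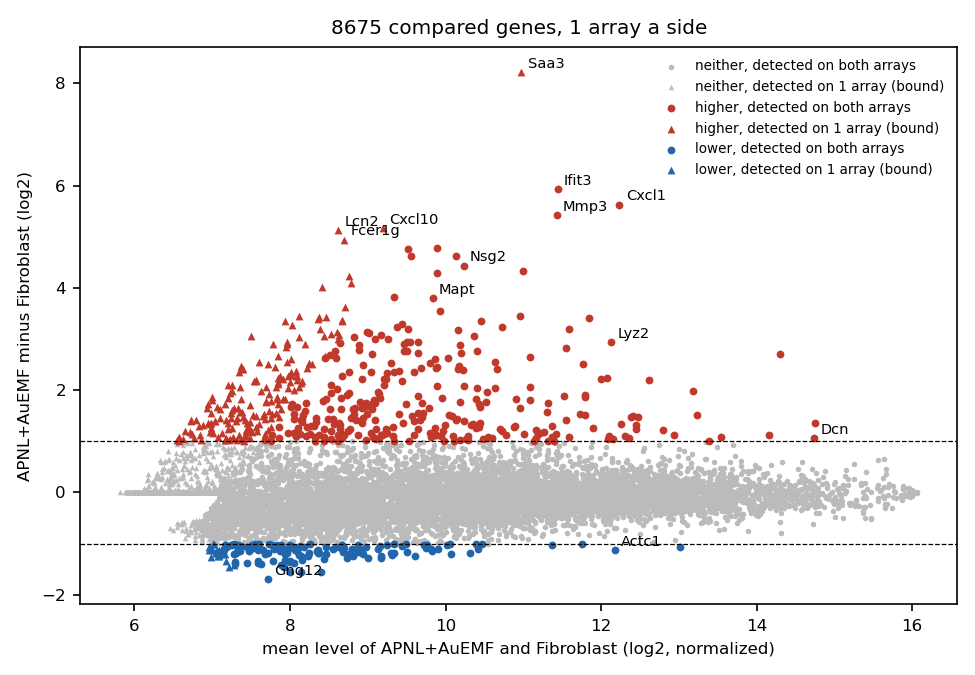
Difference between APNL+AuEMF and Fibroblast (log2, vertical axis) against the mean level on both arrays (log2, horizontal axis) for the 8675 compared genes, red for higher and blue for lower, with dashed lines at 2-fold. Triangles are bounds from genes detected on 1 array, which sit at 0 where the bound leaves no difference. The higher genes reach 8.21 (Saa3), while the lowest gene, Gng12, stands at -1.69.

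The lower calls had mostly low levels in APNL+AuEMF, where 126 of the 146 genes were detected and the highest stood at 12.47. The 146 lower genes had a median level of 7.40 in APNL+AuEMF, 8.44 in APNL, 6.34 in Primary neuron and 8.64 in Fibroblast. The 453 higher genes had a median level of 9.83 in APNL+AuEMF, 8.75 in APNL, 10.66 in Primary neuron and 7.74 in Fibroblast. On the authors' deposited log2 values, which carry no background correction, 324 genes were higher and only 18 were lower. Calls in the lower direction below therefore depend on the background step, and the share of higher among all called genes was 75.63% in the values used here, 94.74% in the authors' values, 90.86% with another background correction and 81.2% when arrays were scaled to a common median.

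**Figure D2:**
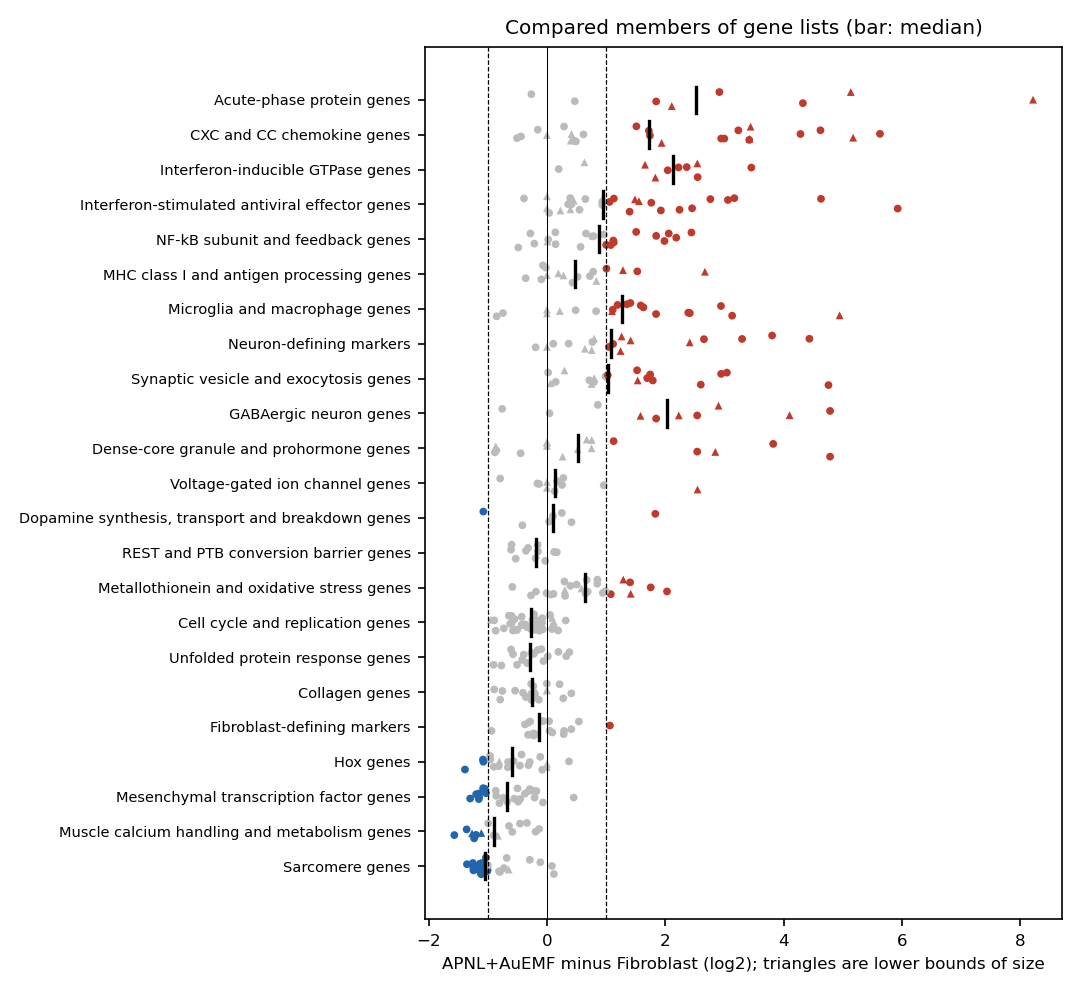
Difference between APNL+AuEMF and Fibroblast (log2, horizontal axis) of each compared gene in 23 gene lists, with a black bar at the list's median, red and blue points for genes called higher and lower, triangles for lower bounds and dashed lines at 2-fold. Acute-phase, GTPase, GABAergic and chemokine genes lie farthest to the right, and sarcomere and muscle calcium handling genes farthest to the left.

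Interferon-stimulated genes held some of the largest differences. Of 41 antiviral effector genes with a probe, 29 were compared, 14 were higher and 0 were lower, with a median difference of 0.95 against -0.07 over all compared genes. Ifit3, whose protein binds foreign RNA together with its relatives, had a level of 14.41 in APNL+AuEMF, 12.92 in APNL, 14.81 in Primary neuron and 8.48 in Fibroblast. That is a difference of 5.93 from fibroblasts, or 60.9-fold, and its other probes gave 2.20 and 2.36. Rsad2 (viperin, which makes a chain-terminating nucleotide) had 12.45, 11.12 and 12.89 on APNL+AuEMF, APNL and Primary neuron, against 7.82 in Fibroblast. For both genes the primary neurons stood highest, the APNL+AuEMF cells next and the fibroblasts lowest of the 4 arrays.

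Isg15, a ubiquitin-like modifier, stood at 11.89 in APNL+AuEMF and 8.83 in Fibroblast, a difference of 3.06. Cmpk2, a mitochondrial nucleotide kinase that lies beside Rsad2 in the genome, differed by 3.17, Mx2 (a dynamin-like antiviral GTPase) by 2.76 and Oasl2 by 2.24. The remaining higher effectors were Parp14, Phf11d, Ifit2, Oas1g, Oasl1, Bst2, Trim21 and Ube2l6, between 1.06 and 2.45, where the second probe of Phf11d gave 0.81. The interferon-induced membrane proteins were not among the called genes, with 0.42 for Ifitm2, 0.36 for Ifitm3 and -0.39 for Ifitm1.

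The interferon-inducible GTPases, which attack the vacuoles that shelter pathogens, were higher in 8 of 10 compared genes, with a median of 2.13. Gbp3 had a level of 12.68 in APNL+AuEMF, 11.27 in APNL, 13.02 in Primary neuron and 9.22 in Fibroblast, a difference of 3.45, and its second probe gave 3.34. Igtp differed by 2.55, Ifi47 by 2.36, Gbp2 by 2.22 and Irgm2 by 2.04, while Gvin1, Gbp7 and Gbp2b rest on bounds of at least 2.54, 1.83 and 1.66. The second probe of Gbp7 gave 0.997, just under 2-fold. APNL+AuEMF detected all 10 compared GTPase genes and Fibroblast 6, and a gene detected only in APNL+AuEMF could not be called lower. Irgm1, a regulator of the other IRG proteins, was bright on every array and differed by 0.20 (14.64 in APNL+AuEMF and 14.45 in Fibroblast).

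Upstream of these effectors fewer genes were called. Among 15 compared sensors of nucleic acid and microbes 3 were higher. Tlr2, a receptor for lipoproteins, had a level of 11.09 in APNL+AuEMF, 9.25 in APNL, 10.32 in Primary neuron and 8.66 in Fibroblast, a difference of 2.43. Dhx58 (LGP2, a regulator of RNA sensing) was higher by at least 2.20 and Cd14, the endotoxin co-receptor, by 1.19. The RNA sensor Ddx58 (RIG-I) differed by 0.72, and the DNA sensor Cgas by -0.70. Of 17 compared genes of interferon signalling, Irf7 and Usp18 were higher. Irf7, the factor that amplifies type I interferon output, was detected in APNL+AuEMF (9.63), APNL (7.79) and Primary neuron (10.36) and not in Fibroblast, a difference of at least 2.51. Usp18, which removes Isg15 and restrains the receptor, differed by 2.52 on its brightest probe and by 2.80 and 0.81 on the others. Stat2 (0.86), Irf9 (0.71), Irf1 (0.35) and the receptor chains Ifngr1 (-0.08) and Ifnar2 (-0.47) stayed under 2-fold, and Ifnb1 was not detected on either array.

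Promoters of genes in these sets are printed because 2 short motifs were searched in them: the interferon-stimulated response element, here GAAANNGAAA, and the NF-kB site, here GGGANNTTCC, each on both strands, with N any base. Windows run from 250 bases before to 50 after the annotated start, from RefSeq on GRCm38.p6, and positions count from 0 at that start. A window holds the first motif in 3.44% and the second in 1.47% of all 32851 windows. Among windows of compared genes the shares were 3.02% and 1.35%, and among windows of called higher genes 6.87% and 1.72%. Windows of the interferon effector list held the response element in 12 of 28 (42.9%) and those of the GTPase list in 8 of 10 (80.0%). The NF-kB site was in 3 of 20 chemokine windows (15.0%) and in 3 of 23 windows of the NF-kB list (13.0%), and likewise in 20.0% of GTPase windows, 10.7% of interferon effector windows and 0 of 7 acute-phase windows. Members of a gene family can share promoter sequence by descent and some genes have several windows, so these shares are a description. Capitals mark matches to these 2 motifs or to the E-box CAGCTG, and a match is not a shown binding site. The Isg15 promoter was chosen after its 3 overlapping matches were seen, and the others were not chosen by size of difference alone. Rsad2, Gbp3, Clec4d, Igtp and the neuronal genes Sst, Nsg2 and Gpm6a differed by more than Gbp2 and also hold the response element, but are not printed.
Ifit3, chr19:34583279-34583578, plus strand: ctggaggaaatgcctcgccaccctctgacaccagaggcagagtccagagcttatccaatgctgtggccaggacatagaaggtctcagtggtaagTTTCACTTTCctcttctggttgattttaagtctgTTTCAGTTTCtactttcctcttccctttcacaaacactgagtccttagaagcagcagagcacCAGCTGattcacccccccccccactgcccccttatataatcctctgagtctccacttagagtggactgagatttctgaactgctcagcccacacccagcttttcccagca
Isg15, chr4:156200769-156201068, minus strand: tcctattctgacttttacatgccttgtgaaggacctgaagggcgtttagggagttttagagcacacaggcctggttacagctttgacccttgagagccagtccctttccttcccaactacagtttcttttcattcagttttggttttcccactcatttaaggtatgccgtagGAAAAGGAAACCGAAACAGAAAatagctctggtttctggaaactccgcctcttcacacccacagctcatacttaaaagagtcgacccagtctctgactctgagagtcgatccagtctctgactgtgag
Gbp2, chr3:142620413-142620712, plus strand: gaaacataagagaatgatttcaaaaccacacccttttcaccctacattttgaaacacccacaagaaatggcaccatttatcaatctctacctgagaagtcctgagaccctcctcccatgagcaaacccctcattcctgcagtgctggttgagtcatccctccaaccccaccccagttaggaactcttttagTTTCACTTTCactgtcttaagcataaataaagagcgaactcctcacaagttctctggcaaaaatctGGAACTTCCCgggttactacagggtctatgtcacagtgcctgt
Cxcl10, chr5:92348840-92349139, minus strand: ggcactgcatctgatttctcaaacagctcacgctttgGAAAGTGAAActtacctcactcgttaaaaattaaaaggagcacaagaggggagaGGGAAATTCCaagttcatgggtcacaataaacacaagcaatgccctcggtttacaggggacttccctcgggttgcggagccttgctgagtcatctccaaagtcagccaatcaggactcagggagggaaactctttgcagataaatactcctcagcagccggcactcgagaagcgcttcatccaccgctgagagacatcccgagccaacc
Cxcl1, chr5:90890995-90891294, plus strand: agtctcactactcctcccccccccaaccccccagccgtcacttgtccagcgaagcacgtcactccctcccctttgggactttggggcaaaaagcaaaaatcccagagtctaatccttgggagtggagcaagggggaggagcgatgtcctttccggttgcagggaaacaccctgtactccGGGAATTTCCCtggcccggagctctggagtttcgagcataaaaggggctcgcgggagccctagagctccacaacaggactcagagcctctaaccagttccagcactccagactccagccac
Saa3, chr7:46715627-46715926, minus strand: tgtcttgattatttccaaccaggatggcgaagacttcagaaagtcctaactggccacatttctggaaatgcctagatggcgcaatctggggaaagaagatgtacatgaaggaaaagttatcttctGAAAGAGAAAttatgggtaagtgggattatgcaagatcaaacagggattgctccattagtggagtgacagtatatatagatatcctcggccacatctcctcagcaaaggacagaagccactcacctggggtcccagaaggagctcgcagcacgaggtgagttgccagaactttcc

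In these windows Ifit3 holds the response element at -156 to -147 and at -122 to -113, both read on the opposite strand, and an E-box at -60 to -55. Isg15 holds 3 overlapping copies, the first starting at -78 and the last ending at -57. Gbp2 holds a response element at -59 to -50 and an NF-kB site at 7 to 16, just after the start. Cxcl10 holds a response element at -213 to -204 and an NF-kB site at -159 to -150. In Cxcl1 the NF-kB letters match on both strands, at -71 to -62 and 1 base further. Saa3 holds 1 response element, at -125 to -116, and no NF-kB match to these letters.

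For antigen presentation by MHC class I, 24 genes had a probe. Of 16 compared genes 4 were higher, with a median of 0.48: Psmb9, an immunoproteasome subunit (at least 2.67), Tap2 (1.53) and Tap1 (at least 1.29), the peptide transporter, and Psmb10 (1.01). Tap2 had a level of 10.16 in APNL+AuEMF, 9.07 in APNL, 10.27 in Primary neuron and 8.63 in Fibroblast. The light chain B2m differed by 0.43 and the heavy chain H2-K1 by -0.36 (9.68 in APNL+AuEMF and 10.04 in Fibroblast), and the heavy chain genes of this family resemble each other closely enough for a probe to read several. Of the MHC class II genes with a probe only H2-DMa was detected, at 8.11 in APNL+AuEMF and 8.44 in Fibroblast.

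Chemokines had as many higher genes as the antiviral effectors. Of 34 with a probe 24 were compared, 14 were higher and 0 were lower, with a median of 1.73. Cxcl1, which draws neutrophils through the receptor Cxcr2, reached 15.05 in APNL+AuEMF, 13.56 in APNL, 15.20 in Primary neuron and 9.42 in Fibroblast. It was 49.4-fold higher than in fibroblasts, a difference of 5.63 (raw intensity 36428 in APNL+AuEMF and 661 in Fibroblast). Cxcl10, a ligand of Cxcr3 and a classic interferon target, had 12.30, 10.31 and 13.37 on APNL+AuEMF, APNL and Primary neuron and was not detected in Fibroblast, so that it was at least 36.1-fold higher. Cxcl5 (11.87 in APNL+AuEMF and 7.25 in Fibroblast) was 24.6-fold higher, from a Fibroblast level close to the lowest detected there, 7.13.

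The CC chemokines, which attract monocytes, lymphocytes or eosinophils, did not share a single pattern over the 4 arrays. Ccl2 had 13.56 in APNL+AuEMF, 11.81 in APNL, 13.85 in Primary neuron and 10.14 in Fibroblast, with the primary neurons and the APNL+AuEMF cells alike. Ccl11 (eotaxin) had 12.03 in APNL+AuEMF, 7.98 in APNL, 7.92 in Primary neuron and 7.74 in Fibroblast. For Ccl11 the APNL+AuEMF array alone stood high, by 4.28 over fibroblasts, and the second probe gave 3.81. Ccl8 was alike, at 10.57 in APNL+AuEMF, not detected in APNL or Fibroblast and 6.91 in Primary neuron. Ccl12 had 10.76 in APNL+AuEMF and between 7.76 and 8.17 on the other arrays. Ccl3 (at least 3.42), Ccl4 (3.23), Ccl5 (2.94), Cxcl2 (at least 1.94), Cxcl16 (1.74), Ccl9 (1.72) and Ccl7 (1.51) complete the higher genes, while Cxcl12, the homeostatic stromal chemokine, differed by -0.15 and Cx3cl1 by 0.49.

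Cytokine genes were less altered than chemokines. Of 20 compared interleukin, growth-stimulating factor and receptor genes 3 were higher, with a median of 0.10. Il6 was detected in APNL+AuEMF (9.27), APNL (8.44) and Primary neuron (9.38) and not in Fibroblast, a difference of at least 2.14. Il1b was higher by at least 1.82. Lif was higher by 1.14 on its brightest probe and by 0.36 on another. Tnf stood at 7.86 in APNL+AuEMF and was not detected in Fibroblast, which leaves a bound of 0.73.

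Genes under NF-kB control, including the brakes that it induces on itself, were higher in 10 of 22 compared, with a median of 0.88. Tnfaip3 (A20, a ubiquitin-editing brake) had 10.90 in APNL+AuEMF, 9.90 in APNL, 11.09 in Primary neuron and 8.46 in Fibroblast, a difference of 2.44. Nfkbia, the inhibitor that holds NF-kB in the cytoplasm, had 10.54, 8.94 and 11.43 on APNL+AuEMF, APNL and Primary neuron, against 8.35 in Fibroblast. Tnfaip2 (2.06), Ier3 (1.99), Zc3h12a (1.85), Nfkbiz (1.51), Relb (1.12) and Sod2 (1.08) were also higher. The subunit genes Rela (0.14) and Nfkb2 (0.02) were not called, and Ptgs2 had a bound of 0.00. Ptges, the terminal enzyme of prostaglandin E2 synthesis, was higher by 1.13, with 0.48 on its second probe.

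The acute-phase list held the gene with the largest difference. Saa3, a serum amyloid made outside the liver, had a level of 15.34 in APNL+AuEMF, 10.58 in APNL and 12.88 in Primary neuron and was not detected in Fibroblast. Its raw intensity was 45367 in APNL+AuEMF and 187 in Fibroblast, and after background correction it was at least 297-fold higher, the largest difference among all compared genes. That size rests on the background step, since the difference was 7.62 on the authors' deposited log2 values and at least 8.21 here. Lcn2, which binds iron-carrying siderophores, had 12.26 in APNL+AuEMF, 7.25 in APNL and 9.05 in Primary neuron and was not detected in Fibroblast, at least 35.1-fold higher. Both genes stood highest in APNL+AuEMF of the 4 arrays.

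Other acute-phase genes followed the same order of arrays. Serpina3n, a protease inhibitor, had 13.16 in APNL+AuEMF, 9.38 in APNL, 9.93 in Primary neuron and 8.83 in Fibroblast, a difference of 4.33. Cp (ceruloplasmin, a copper oxidase) had 10.10, 7.30, 8.51 and 7.19 on APNL+AuEMF, APNL, Primary neuron and Fibroblast, a difference of 2.91. Hp (haptoglobin) was higher by at least 2.11 on its brightest probe, and its second probe had a bound of 0.00. In all 6 of 8 compared acute-phase genes were higher, with a median of 2.51. Of 11 compared complement genes 3 were higher, C1qb (1.63), C1qc (1.41) and the inhibitor Serping1 (1.31), the first 2 being macrophage products as well.

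Secreted proteases that cut the matrix were led by Mmp3 (stromelysin-1). Mmp3 had 14.14 in APNL+AuEMF, 9.93 in APNL, 11.48 in Primary neuron and 8.72 in Fibroblast, a difference of 5.42 or 42.9-fold, and its other probes gave 5.70 and 5.94. All 3 probes put the APNL+AuEMF cells far above the fibroblasts. Mmp12, the macrophage elastase, stood at 10.18 in APNL+AuEMF and was not detected in Fibroblast, at least 3.05 higher. Mmp24 was higher by at least 2.30, Mmp10 by at least 1.03 and Mmp13 (collagenase-3) by 1.91, with 0.18 on a second probe of Mmp13. Adamts19 was lower, at -1.31. Together 5 of 22 compared genes of this list were higher and 1 was lower, and Timp1, an inhibitor of these enzymes, differed by 0.46. Of the lysosomal proteases 1 of 20 compared was higher, Ctss (at least 1.10), which is a myeloid cathepsin.

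Of 32 macrophage genes with a probe 20 were compared, 13 were higher and 0 were lower, with a median of 1.27, and all 13 stood higher in APNL+AuEMF than on any of the other arrays. Fcer1g, the signalling chain of Fc receptors, had 12.07 in APNL+AuEMF and no detection on APNL, Primary neuron or Fibroblast (raw intensity 4759 in APNL+AuEMF and 136 in Fibroblast), at least 30.8-fold higher. Lyz2 (lysozyme M) had 13.60 in APNL+AuEMF, 10.55 in APNL, 8.99 in Primary neuron and 10.66 in Fibroblast, a difference of 2.94. Here APNL and Fibroblast were alike and the primary neurons were the lowest.

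The macrophage surface marker Adgre1 (F4/80) had that order too. Adgre1 had 11.37 in APNL+AuEMF, 8.82 in APNL, 8.13 in Primary neuron and 8.95 in Fibroblast, and its second probe gave a difference of 2.48 where the first gave 2.41. Clec4d differed by 3.13, Ms4a7 by 2.39 (0.28 on its second probe), Mrc1 (the mannose receptor) by 1.84, Tyrobp by 1.58 and Trem2 by 1.35. Other defining genes of the list did not move with these. Ptprc (CD45), Itgam (CD11b), Spi1 (PU.1), Cybb and Cd74 were not detected on either array, and the resting microglia genes Cx3cr1 (-0.85) and Tmem119 (-0.74) were not called, while P2ry12 was not detected. Summed over the list on the linear normalized scale, the level was 39943 in APNL+AuEMF and 12377 in Fibroblast, with 20 and 15 genes detected. The called macrophage genes were thus higher than in Fibroblast, as were called chemokine and acute-phase genes and most called protease genes. The order over the arrays was not shared, however. Cxcl1, Cxcl10 and Ccl2 stood highest in Primary neuron (15.20, 13.37 and 13.85), where Adgre1 stood lowest. Ccl11, Ccl8, Saa3, Lcn2 and Mmp3 stood highest in APNL+AuEMF, as Adgre1 did. The part of macrophages in the chemokine, acute-phase and protease results was not tested. In RNA of a whole culture, more cells of a type and more RNA per cell cannot be told apart.

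Markers of other cell types gave calls in both directions. Of 9 neutrophil genes with a probe 2 were compared and none was called, of 12 lymphocyte genes 1 was compared (Cd3e, at -1.07), and of 6 red cell genes none was detected on either array. The endothelial genes Emcn (9.25 in APNL+AuEMF and 10.41 in Fibroblast) and Tek (8.15 and 9.18 on the same arrays) were lower, 2 of 6 compared. Of the chondrocyte and bone genes Omd and Sp7 were lower, 2 of 6 compared, and of the adipocyte genes Lpl was higher, by 1.06, 1 of 2 compared. Ttr, the transthyretin of the choroid plexus, stood at 11.15 in APNL+AuEMF, 9.87 in APNL and 12.88 in Primary neuron and was not detected in Fibroblast, at least 16.3-fold higher. Olig1, a factor of the oligodendrocyte lineage, had 12.13, 10.85 and 12.39 on APNL+AuEMF, APNL and Primary neuron, against 8.77 in Fibroblast, a difference of 3.36, while Gpr17 of the same lineage was lower, at -1.18. Of the astrocyte genes Aldoc (2.63) and the glutamate transporter Slc1a3 (1.48) were higher, and Gfap was not detected.

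**Figure D3:**
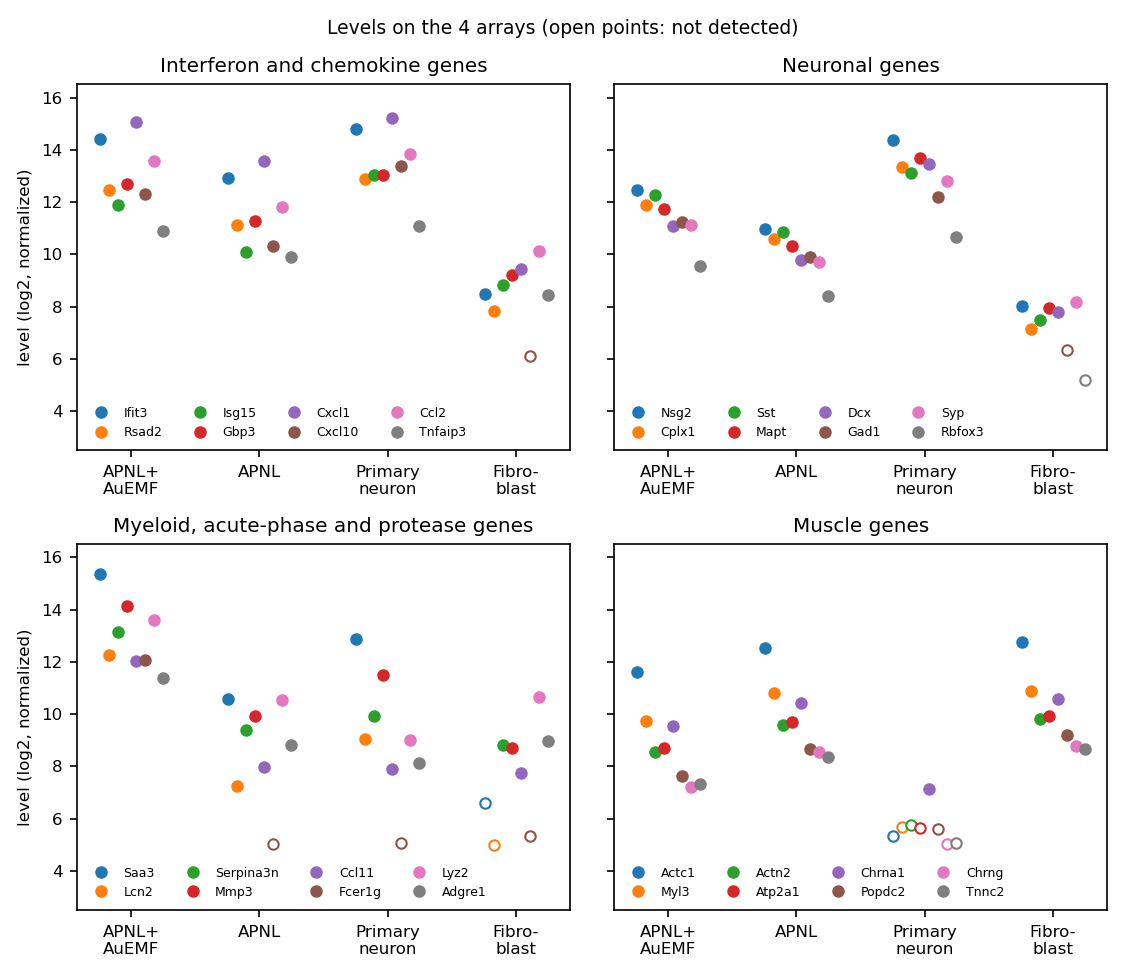
Normalized level (log2, vertical axis) of 32 genes on the 4 arrays, APNL+AuEMF, APNL, Primary neuron and Fibroblast from left to right, in 4 panels, with open points where the gene was not detected. Genes shown in the interferon and chemokine panel and the neuronal panel are high in APNL+AuEMF and higher still or alike in Primary neuron. Genes of the myeloid, acute-phase and protease panel, where the chemokine Ccl11 is plotted, peak in APNL+AuEMF. The chemokines Ccl8 and Ccl12, which are not plotted, also stood higher in APNL+AuEMF than in Primary neuron. Most muscle genes shown are not detected in Primary neuron.

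Of 151 compared genes on the neuronal lists 50 were higher and 1 was lower, with a median difference of 0.34. Of 20 neuron-defining markers with a probe 18 were compared, 10 were higher and 0 were lower, with a median of 1.08. APNL+AuEMF detected 18 of them and Fibroblast 10, where over all genes these arrays detected 8576 and 7847. Of the 10 markers detected on both arrays 6 were higher. On the authors' values, and likewise with a mean over each gene's probes, 6 of the 18 were higher. Nsg2, a neuronal endosome protein, had 12.45 in APNL+AuEMF, 10.96 in APNL, 14.39 in Primary neuron and 8.02 in Fibroblast, a difference of 4.44 or 21.6-fold. Rbfox3 (NeuN, a splicing factor of mature neurons) had 9.54, 8.42 and 10.65 on APNL+AuEMF, APNL and Primary neuron and was not detected in Fibroblast, at least 5.33-fold higher. The level on the APNL array lay between those of APNL+AuEMF and Fibroblast for both.

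The neuronal cytoskeleton was led by Mapt (tau), at 11.74 in APNL+AuEMF, 10.33 in APNL, 13.70 in Primary neuron and 7.93 in Fibroblast. Mapt differed by 3.80 from fibroblasts on that probe, and another of its probes had a bound of 0.00. Dcx (doublecortin, a marker of young migrating neurons) had 11.09, 9.78, 13.47 and 7.79 on APNL+AuEMF, APNL, Primary neuron and Fibroblast, and 2 probes gave 3.30 and 3.13. Stmn2, a growth cone stathmin, differed by 2.65, its relative Stmn3 by at least 2.46 and Dpysl5 by 2.90. Of 21 compared genes of this group 11 were higher, against 9 on the authors' values and 7 with a mean over each gene's probes. Map2, the dendrite protein, was high in fibroblasts too, with 12.67 in APNL+AuEMF and 11.62 in Fibroblast, and a second probe had a bound of 0.00. Tubb3, the class III tubulin used to stain neurons, had a bound of 0.00, and Gap43 differed by 0.11, at 12.15 in APNL+AuEMF and 12.04 in Fibroblast.

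The machinery of transmitter release was higher in 10 of 19 compared genes, with a median of 1.03. Cplx1 (complexin 1, which clamps vesicle fusion) had 11.90 in APNL+AuEMF, 10.59 in APNL, 13.34 in Primary neuron and 7.14 in Fibroblast, a difference of 4.76 or 27.0-fold. That Fibroblast level lay close to the lowest detected level of the array, 7.13, so the fold depends on the background step. Cadps, which primes dense-core granules, differed by 3.04, the vesicle protein Syp (synaptophysin) by 2.94, Syt4 by 2.60 and Syn1 (synapsin 1) by 1.74, with 1.67 on its second probe. Syt1, the fast calcium sensor, differed by 0.80, and Snap25, the partner of syntaxin, was not detected on any array.

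Peptide hormone genes included some of the largest neuronal differences. Sst (somatostatin) had 12.28 in APNL+AuEMF, 10.86 in APNL, 13.10 in Primary neuron and 7.49 in Fibroblast, a difference of 4.78 or 27.6-fold. Npy (neuropeptide Y) had 10.56, 9.16, 10.53 and 8.03 on APNL+AuEMF, APNL, Primary neuron and Fibroblast, so the APNL+AuEMF cells and primary neurons were alike. The granule genes Scg5 (3.82), Scg3 (at least 2.85) and Vgf (1.13) were higher, 5 of 17 compared in this list with Sst and Npy. Scg2 and Chgb were detected in APNL+AuEMF and not in Fibroblast, with bounds of 0.76 and 0.75.

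Among the lists by transmitter, the GABAergic list held the most called genes. Of 10 compared GABAergic genes 7 were higher, with a median of 2.04. APNL+AuEMF detected all 10 and Fibroblast 6, and a gene detected only in APNL+AuEMF could not be called lower. Of the 6 detected on both arrays 3 were higher, with a median of 1.35. The list overlaps that of peptide hormone genes, for example in Sst. Gad1, which makes GABA from glutamate, had 11.23 in APNL+AuEMF, 9.88 in APNL and 12.18 in Primary neuron and was not detected in Fibroblast, at least 17.1-fold higher, and its second probe gave at least 3.72 on the log2 scale. Slc32a1, the vesicular GABA transporter, was higher by at least 2.90, Calb2 (calretinin) by at least 2.23, Nkx2-1 by at least 1.58 and Dlx1 by 1.85. Gad2 was not detected on any array. The glutamatergic list had 2 higher of 7 compared, Nrn1 (1.38) and the cortical factor Tbr1 (at least 1.05). Slc17a6, a vesicular glutamate transporter, had 10.42 in APNL+AuEMF and 9.52 in Fibroblast, and Slc17a7 was not detected on either.

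Dopamine genes gave 1 call in each direction. Gch1, the first enzyme of the tetrahydrobiopterin that tyrosine hydroxylase needs, had 11.31 in APNL+AuEMF, 10.16 in APNL, 11.30 in Primary neuron and 9.47 in Fibroblast, a difference of 1.83, but 0.11 on its second probe. Ddc, which turns L-DOPA into dopamine, was lower, with 8.44 in APNL+AuEMF, 9.27 in APNL, 6.81 in Primary neuron and 9.51 in Fibroblast, a difference of -1.07. Th (tyrosine hydroxylase), Slc6a3 (the dopamine transporter), Slc18a2 (the vesicular monoamine transporter), Drd1 and Drd2 were not detected on either array. Th was not detected in Primary neuron either, where its level was 5.48 against 5.15 in APNL+AuEMF and 5.09 in Fibroblast.

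Of 4 genes listed as introduced factors 3 had a probe, and these gave no call. Nr4a2 had 7.19 in APNL+AuEMF, 7.26 in APNL, 7.71 in Primary neuron and 7.19 in Fibroblast, a difference of -0.01 (0.18 when arrays were scaled to a common median). Pitx3 and Lmx1a were not detected on either array. Whether the probes read the introduced copies is unknown, so these values do not check the labels. Among other midbrain factors Otx2 was higher by at least 1.42, at 8.55 in APNL+AuEMF and not detected in Fibroblast, and En1 differed by -0.43.

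Excitability genes were mostly under the detection limit. Of 30 voltage-gated channel genes with a probe 11 were compared, and 1 was higher, Kcnc1, a potassium channel of fast-firing interneurons (9.67 in APNL+AuEMF, not detected in Fibroblast, at least 2.54). None of the sodium channel genes on the list was detected on either array. Of the transmitter receptors Gria2, an AMPA receptor subunit, had 10.71 in APNL+AuEMF, 9.35 in APNL, 12.59 in Primary neuron and 7.64 in Fibroblast, a difference of 3.07 that a second probe put at 0.02. Glra2, a glycine receptor subunit of immature neurons, was higher by at least 1.39. The adhesion genes Gpm6a (at least 3.35), Cntn1 (1.96) and Nrcam (1.88) were higher, and Ncam1 had 10.54 in APNL+AuEMF and 11.43 in Fibroblast.

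Neuronal splicing regulators were higher in 5 of 10 compared genes: Rbfox3, Rbfox1 (2.22), Elavl2 (2.09), Elavl4 (at least 1.41) and Elavl3 (at least 1.26). The median of the list was 0.95. APNL+AuEMF detected all 10 and Fibroblast 4, and of the 4 detected on both arrays 2 were higher. With a mean over each gene's probes 2 of the 10 were higher, with a median of 0.15, and on the authors' values 3 were, so this count rests on the processing. Elavl2, an RNA-binding protein of the Hu family, had 10.25 in APNL+AuEMF, 9.36 in APNL, 12.13 in Primary neuron and 8.16 in Fibroblast, and a second probe gave 2.08. None of the 11 compared genes of the REST and PTB systems, which hold neuronal genes off in other cells, was called. Their median was -0.19, with Ptbp1 at 12.67 in APNL+AuEMF and 12.83 in Fibroblast, and Rest was not detected on either.

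Neural genes outside these lists were also among the largest differences. Mpped1 had 11.37 in APNL+AuEMF, 10.22 in APNL and 13.03 in Primary neuron and was not detected in Fibroblast, at least 18.9-fold higher. Dnajc6 (auxilin, which uncoats clathrin vesicles) was higher by at least 3.62 and B3gat1, which makes the HNK-1 sugar of neural cells, by at least 3.43. Rtn1, a neuronal reticulon, differed by 3.20, with 3.35 and 1.99 on other probes, and the kinase subunit gene Camk2b by 3.19. Sox21, a factor of neural progenitors, differed by 3.55 on its brightest probe, and another probe had a bound of 0.00.

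The sarcomere list held the most lower genes of any list. Of 40 sarcomere genes with a probe 26 were compared, all 26 detected in Fibroblast and 24 in APNL+AuEMF. Of these 16 were lower and 0 were higher, with a median of -1.05 against -0.07 over all compared genes. Actc1 (cardiac actin, which embryonic muscle also uses) had 11.61 in APNL+AuEMF, 12.52 in APNL and 12.74 in Fibroblast and was not detected in Primary neuron. It was lower, at -1.13 on that probe and at -1.54 on its second. Myl1, a fast myosin light chain, had 12.47, 13.35, 6.40 and 13.54 on APNL+AuEMF, APNL, Primary neuron and Fibroblast, a difference of -1.07. Actc1 and Myl1 stayed well above the lowest detected level in the APNL+AuEMF cells, and their levels on APNL lay close to those on Fibroblast.

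The other lower sarcomere genes fell in a narrow range. They ran from Tnnc2 (troponin C, -1.35), Actn2 (-1.25), Myh6 (-1.25), Csrp3 (-1.24), Ttn (titin, -1.20), Myl3 (-1.18) and Myom1 (-1.18) to Myl2 (-1.01) and Acta1, the skeletal actin (11.25 in APNL+AuEMF and 12.25 in Fibroblast). Csrp3 had -1.53 and -0.71 on its other probes. The tropomyosins Tpm1 (-0.11), Tpm2 (-0.29) and Tpm3 (0.12), which non-muscle cells also use, were not called. Under the authors' deposited log2 values 4 of these 26 genes were lower by 2-fold, with another background correction 8, with scaling to a common median 14 and at a 3-fold threshold 0, so the number called rests on the processing.

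Genes of muscle calcium handling and metabolism were lower in 6 of 15 compared, with a median of -0.90. Popdc2, a membrane protein of striated muscle, had 7.62 in APNL+AuEMF, 8.68 in APNL and 9.19 in Fibroblast, a difference of -1.56 with -1.06 on its second probe. Atp2a1 (the calcium pump SERCA1) had 8.70, 9.71 and 9.93 on APNL+AuEMF, APNL and Fibroblast, a difference of -1.23. Both were not detected in Primary neuron. Casq2 (calsequestrin) was lower, at -1.36, as was Mb (myoglobin), at -1.20, while Sln and Hrc, regulators of calcium stores, were not detected in APNL+AuEMF and were lower by at least 2.41-fold and 2.16-fold.

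At the neuromuscular endplate 2 of 9 compared genes were lower. Chrng, the fetal gamma subunit of the muscle acetylcholine receptor, had 7.23 in APNL+AuEMF, 8.55 in APNL and 8.78 in Fibroblast, a difference of -1.55. Chrna1, the alpha subunit, had 9.54, 10.44, 7.11 and 10.56 on APNL+AuEMF, APNL, Primary neuron and Fibroblast, a difference of -1.01 with -1.08 on a second probe. The myogenic factor Myog had a difference of -0.77, and Myod1 and Myf5 were not detected on either array.

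The E-box CAGCTG, a form that myogenic factors bind, was in 16.3% of all promoter windows, in 15.2% of those of compared genes in 24.2% of those of the genes called lower and in 19.3% of those of the genes called higher. It was in 10 of 26 sarcomere windows (38.5%), in 6 of 11 calcium handling windows (54.5%) and in 3 of 8 endplate windows (37.5%). It was also in 5 of 20 chemokine windows and in 5 of 28 interferon effector windows (17.9%). It is short and common in promoters. The promoters of Chrng, with matches at -155 to -150 and -132 to -127, and of Atp2a1, with a match at -55 to -50, are shown as examples. They were chosen among muscle genes after their values were seen, and capitals mark the E-box.
Chrng, chr1:87205561-87205860, plus strand: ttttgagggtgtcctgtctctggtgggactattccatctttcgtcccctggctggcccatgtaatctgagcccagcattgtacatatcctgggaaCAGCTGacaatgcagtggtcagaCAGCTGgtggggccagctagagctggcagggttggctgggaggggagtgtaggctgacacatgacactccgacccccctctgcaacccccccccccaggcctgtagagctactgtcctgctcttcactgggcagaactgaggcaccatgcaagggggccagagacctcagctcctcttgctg
Atp2a1, chr7:126463024-126463323, minus strand: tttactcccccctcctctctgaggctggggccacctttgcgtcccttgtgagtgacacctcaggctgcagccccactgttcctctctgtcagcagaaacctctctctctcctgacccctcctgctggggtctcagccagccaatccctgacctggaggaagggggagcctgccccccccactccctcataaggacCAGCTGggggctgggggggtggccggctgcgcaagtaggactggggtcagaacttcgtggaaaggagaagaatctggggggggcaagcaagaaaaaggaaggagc

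Transcription factors that give mesenchyme its identity and position were lower in part. Of 25 compared mesenchymal factors 8 were lower and 0 were higher, with a median of -0.67. Ebf3 had 7.79 in APNL+AuEMF, 8.86 in APNL, 7.85 in Primary neuron and 9.09 in Fibroblast, a difference of -1.30. Foxd1, a factor of stromal progenitors, had 8.34, 9.17, 6.85 and 9.54 on APNL+AuEMF, APNL, Primary neuron and Fibroblast, a difference of -1.20. Meox1, Ebf2, Foxc2, Barx1, Wt1 and Six2 were lower, at -1.15 to -1.03, with -0.82 on the second probe of Ebf2. Core factors of fibroblasts were not called, at -0.31 for Twist1, -0.22 for Prrx1 and -0.07 for Zeb1.

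Among the Hox genes, which record position along the body axis, 3 of 21 compared were lower, all of the Hoxd cluster. Hoxd12 had 6.76 in APNL+AuEMF, 7.84 in APNL and 8.15 in Fibroblast, a difference of -1.39, and Hoxd3 and Hoxd4 differed by -1.08 and -1.07. The median of the list was -0.59, and the largest value was 0.37 for Hoxb7. Under the authors' log2 values none of the mesenchymal factors and none of the Hox genes passed 2-fold in the lower direction.

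Some of the largest lower differences were of genes on no list. Gng12, a gamma subunit of heterotrimeric G proteins, had 6.88 in APNL+AuEMF, 8.01 in APNL and 8.56 in Fibroblast and was not detected in Primary neuron, a difference of -1.69 or 3.22-fold lower. Map3k7cl (-1.55), the basal keratin gene Krt14 (-1.45) and Snai3 (-1.42), a Snail family factor, were on no list either. The 4 genes stood between 6.88 and 7.37 in APNL+AuEMF, where the lowest detected level was 6.58. Pcdh18, of the cadherin and protocadherin list, was not detected in APNL+AuEMF, against 8.05 in Fibroblast, and was at least 2.76-fold lower.

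The matrix genes that define fibroblasts gave 1 call. All 18 compared fibroblast-defining markers were detected on both arrays, and Dcn was higher. Primary neuron detected 18 of these markers too, and 17 of the collagen genes. Likeness to the Primary neuron array therefore need not be likeness to neurons, which was not tested. Col1a1, the main chain of collagen I, had 15.55 in APNL+AuEMF, 15.69 in APNL, 14.63 in Primary neuron and 15.77 in Fibroblast, a difference of -0.22. Dcn (decorin) had 15.27, 14.01, 12.84 and 14.21 on APNL+AuEMF, APNL, Primary neuron and Fibroblast, a difference of 1.06 with 1.92 on its second probe. Fap, the fibroblast activation protein, had 9.46 in APNL+AuEMF and 10.40 in Fibroblast.

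Further matrix genes gave few calls. None of 20 compared collagen genes was called, with a median of -0.25, nor any of 11 compared integrin genes, with a median of -0.35. The collagen-binding protein gene Dpt (dermatopontin) was higher by 1.45, at 9.67 in APNL+AuEMF and 8.22 in Fibroblast. Omd (osteomodulin) was lower, at -1.20, and Efemp1, a fibulin, was lower by at least 2.28-fold. Of 15 compared smooth muscle and contractile genes Lmod1 alone was lower, at -1.13.

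Signalling pathways gave scattered calls. In the Notch pathway Nrarp, a feedback inhibitor (at least 2.06), and Mfng, a glycosyltransferase of the receptor (at least 1.72), were higher, while the ligand Jag1 (-1.13) and the target Heyl (at least 2.37-fold) were lower, 4 of 13 compared. In the Wnt pathway the secreted inhibitor Wif1 (-1.04) and the ligand Wnt2 (8.84 in APNL+AuEMF and 9.84 in Fibroblast) were lower, 2 of 22. Fgf7 had 12.53 in APNL+AuEMF and 11.27 in Fibroblast and Pdgfb was higher by at least 1.22, whereas Fgf5 (-1.34) and Fgf21 (-1.12) were lower. Of 30 compared axon guidance genes Ephb1 (1.76) and Sema6b (at least 2.82-fold, with 0.49 on the log2 scale on a second probe) were higher. None of 29 compared genes of the TGF-beta and BMP pathways was called.

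None of 38 compared cell cycle and replication genes passed 2-fold. Their median was -0.26, with Ccna2 at -0.95, Cdk1 at -0.08 and Ccnd1 at 0.32. Among CDK inhibitors and p53 targets Cdkn2a, which encodes p16 and p19ARF, was higher by at least 2.37, at 9.50 in APNL+AuEMF and 7.98 in APNL and not detected in Fibroblast, and the death receptor gene Fas by 1.04. Cdkn1a (p21) had 13.66 in APNL+AuEMF and 13.25 in Fibroblast.

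Of 25 compared metallothionein and oxidative stress genes 6 were higher, with a median of 0.65. Nqo1, a quinone reductase under Nrf2 control, had 9.62 in APNL+AuEMF, 8.33 in APNL, 10.48 in Primary neuron and 7.59 in Fibroblast, a difference of 2.03. Mt2, a metal-binding metallothionein, differed by 1.75, Gstm1 by 1.41, Mt3 by at least 1.42 and Gsta3 by at least 1.29, while Mt1 (0.65) and Hmox1 (0.85) were not called. The hypoxia-inducible Ddit4 (1.23), Ndrg1 (1.11) and Egln3 (1.03) were higher, 3 of 12. None of 19 compared heat shock chaperones and none of 18 compared unfolded protein response genes was called, with Hsp90aa1 at -0.85 and Hspa5 at -0.77.

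Metabolic and chromatin genes gave few calls. Of 21 compared cholesterol genes 1 was called, Ch25h, an interferon-inducible cholesterol hydroxylase (12.93 in APNL+AuEMF and 11.59 in Fibroblast), and the median of the list was -0.46. Glycolysis had a median of 0.12 and oxidative phosphorylation of 0.10, which were -0.06 and -0.09 when arrays were scaled to a common median. In each 1 gene was higher, Aldoc and the mitochondrial coactivator Ppargc1a (at least 1.19). None of 56 compared chromatin genes was called. The histone acetylation and bromodomain genes had a median of -0.13, with Kat5 highest at 0.50 and Brd8 lowest at -0.84, and the histone deacetylase gene Hdac1 had 10.65 in APNL+AuEMF and 11.01 in Fibroblast.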

How the data were processed

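Total RNA of 4 mouse samples, 0.55 ug each per the labels, was hybridised to 1 Illumina array a sample. The submitters' processing notes name GenomeStudio 2011.1, while no source used here gives the chip. The deposited non-normalized table holds an intensity for each of 25697 probes, on a linear scale. Beside it the deposited table gives a detection p-value against negative control beads. The authors also deposited log2 values, which a quantile normalization of log2 intensity without background correction gave to within 5e-07.

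The main levels were computed from the deposited intensity with neqc of limma 3.58.1 (R 4.3.3): normexp background with negative controls inferred from the detection p-values, an offset of 16, quantile normalization of the 4 arrays and log2. Probe depth on arrays is signal over background, and their number limits the precision. Symbols came from GEO's platform annotation: 23978 probes had 1 symbol, 0 had several and 1719 had none. A gene was represented by its brightest probe, the one with the highest mean level over all 4 arrays, and 4777 of 16593 genes had more than 1 probe. No test was computed, since each group has 1 array. The gene lists and the genes and motifs shown were chosen with earlier results of these data known. Named genes are, each way, the 25 with the largest differences when both arrays detected them and the 12 with the largest bounds, besides the introduced factors named here and up to 8 members of each list (all where 12 or fewer were compared). Others were named after their values were seen. The steps were run on simulated data with known changes in probes well above background only. That setting does not cover bounds or calls near the threshold at low levels. Alternatives were the authors' values, another background correction, median scaling, normalizing 2 arrays alone, other detection rules, a mean over each gene's probes and a 3-fold threshold. Python 3.11.15 with pandas 2.3.3, numpy 2.4.6 and matplotlib 3.10.9 was used.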

Additional observations from a re-analysis of the deposited data

How the results depend on the processing

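The counts of 453 higher and 146 lower genes moved past 1.5-fold under these settings. Genes higher numbered 283 when both arrays had to detect a gene, 749 with no detection filter and no bounds, and 229 at a 3-fold threshold. Genes lower numbered 18 on the authors' deposited log2 values, 37 with normexp background without controls and an offset of 50, 236 with no detection filter and 1 at 3-fold, which was Gng12. The other settings gave 324 to 596 higher and 116 to 194 lower genes. No gene called among those named turned its direction, whereas the uncalled Nr4a2 did, at -0.01 here and 0.18 with median scaling. Of 214 called genes that the naming rule covers, 78 were under 2-fold on the authors' values, 59 with the offset of 50, 39 when each gene's probes were averaged and 16 with median scaling. Median scaling put the median of all genes at -0.15, against -0.07. No paired analysis was possible because each group has 1 array, and for the same reason no array could be left out. The precision of low levels is limited by the background: a detected gene has a level of at least 6.58 in APNL+AuEMF and 7.13 in Fibroblast, so differences of genes near these levels are bounds or depend on the correction.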

Other observations

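Probes without a gene name held differences too. Of 1719 such probes 681 were compared, 21 were higher (3.08%) and 9 were lower (1.32%) in APNL+AuEMF, from a largest difference of 5.06 to a smallest of -1.44 on the log2 scale.

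Other probes of the called genes did not always give the same value. The higher genes had 102 other compared probes, of which 58 were also higher by 2-fold, 29 were higher by less, 13 had a bound of 0.00 and 2 were of opposite sign, those of Cyrib (-0.08 against 1.47) and Dpp6 (-0.03 against at least 1.61). The lower genes had 22 other compared probes, of which 8 were also lower by 2-fold, 13 were lower by less and 1 had a bound of 0.00. Imprinted genes had 3 higher of 13 compared, Nnat (at least 1.83, with a bound of 0.00 on its second probe), Snrpn (1.21) and Dcn, while Dlk1 had 12.31 in APNL+AuEMF and 12.84 in Fibroblast.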
